A study of Homo sapiens with 23 samples.

Results

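The 8 genes described here encode membrane pumps of the ATP-binding cassette (ABC) superfamily that carry drugs and drug conjugates out of cells. They are ABCC1, ABCC2, ABCC3, ABCC4, ABCC5 and ABCC10 of subfamily C, ABCB1 of subfamily B and ABCG2 of subfamily G. Members were given as a list of symbols, and all 8 were found by Ensembl identifier among the 57875 genes of the count files. All 8 also passed the filter on low counts, which left 22842 genes for testing.

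RNAseq libraries came from HCT116, a human colon cancer cell line, and from 4 derivatives made by gene editing, each labelled as homozygous null. The wild-type line is called WT, and the others are called AGO1 (AGO1-/-), AGO2 (AGO2-/-), AGO1/2 (AGO1-/-, AGO2-/-) and AGO1/2/3 (AGO1-/-, AGO2-/-, AGO3-/-) knockout cells, the last also called the triple knockout. Each genotype is a single line with 3 replicates, 15 libraries in all, described by the study as biological replicates and grown without drug, so that a difference between genotypes cannot be told apart from a difference between individually derived lines. Total estimated counts ran from 27709971 to 45271146 per library, and the AGO2 knockout libraries, at 40419152 to 45271146, were all deeper than the WT libraries, at 29140175 to 32381721. AGO1 RNA was lower in the 3 lines labelled as lacking it, with log2 fold changes against WT of -1.89 in AGO1, -1.84 in AGO1/2 and -2.01 in triple knockout cells. AGO3 RNA had a log2 fold change of -1.12 in AGO1/2/3 knockout cells. AGO2 RNA had a log2 fold change of -0.51 in AGO2 knockout cells, -0.26 in AGO1/2 knockout cells, where it did not pass the test (edgeR adjusted p = 0.0924), and 0.40 in AGO1/2/3 knockout cells. The direction for AGO2 RNA in the libraries labelled AGO1/2/3 was thus upward, and whole-gene counts do not show an edited sequence. The study checked the edits by DNA sequencing, and on western blots it found the targeted proteins absent from the knockout lines. Epithelial EPCAM and CDH1 were detected, with means of 165 and 49.6 CPM (counts scaled to a library total of 1000000) over the 15 libraries, whereas villin, VIL1, averaged 0.169 CPM. PTPRC, COL1A2, PECAM1 and ALB, which mark leukocytes, fibroblasts, endothelium and hepatocytes, averaged between 0.0898 and 2.06 CPM, and of the 3 that could be tested none was called by edgeR in a knockout line against WT.

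Subfamily C pumps, also called multidrug resistance-associated proteins, export organic anions, many of them coupled to glutathione, glucuronate or sulfate. ABCC2 sits in the apical membrane of hepatocytes and enterocytes and sends conjugates into bile or gut lumen, whereas ABCC1 and ABCC3 sit in the basolateral membrane. ABCB1, or P-glycoprotein, exports bulky hydrophobic drugs, and ABCG2, the breast cancer resistance protein, works as a dimer and exports urate, porphyrins and many drugs. Argonaute (AGO) proteins hold microRNAs, whose seed, bases 2 to 8, pairs with messages mostly in the 3′ untranslated region (3′-UTR). Binding of this kind classically lowers the amount or the translation of a message. ABCC2 is among the genes for which the study selected an AGO2 binding cluster in the 3′-UTR, and its paralogs are compared with it here. For those selected genes the study also reported RNAseq and quantitative PCR levels in the knockout lines and drew candidate miRNA sites.

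To show how ABCC2 and its paralogs compare in sequence, the mature let-7a and let-7f sequences and the matching stretches of the 3 members that hold one are shown. The miRNAs are RefSeq sequences with the seed in capitals, and the target stretches are 30 bases of reference 3′-UTR (GENCODE v44, GRCh38), 5′ to 3′ on the sense strand, with the 7 bases complementary to the seed in capitals.
hsa-let-7a-5p: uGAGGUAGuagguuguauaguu
hsa-let-7f-5p: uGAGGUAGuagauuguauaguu
ABCC2 site: cccctcgattgtCTACCTCgatcgtacttc
ABCC5 site: ctgtaaagagacCTACCTCaggttgctggt
ABCC10 site: tcctctggggctCTACCTCtccacacttcc
The ABCC2 match lies on the plus strand at chr10:99851826-99851832, starting at base 195 of a 3′-UTR of 963 bases. The ABCC5 match is on the minus strand at chr3:183920154-183920160 (base 1140 of 1366), and the ABCC10 match is on the plus strand at chr6:43450189-43450195 (base 98 of 336). Those letters, CTACCTC, occur in 9.85% of 18780 reference 3′-UTRs, and in 6.73% of the 1025 whose length is within 10% of that of ABCC2. The shares among 3′-UTRs of like length were 8.04% of 1120 for ABCC5 and 1.995% of 802 for ABCC10. ABCC1, ABCC3, ABCC4, ABCB1 and ABCG2 have none.

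Among the other miRNAs for which the study names PCR assays, seeds also matched ABCC1 and ABCC4. The 3′-UTR of ABCC2 also holds a match to the seed of miR-21, near its end at chr10:99852556-99852562, and these are the pair.
hsa-miR-21-5p: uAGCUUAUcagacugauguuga
ABCC2 site: tgaatttttattATAAGCTcgttctcctta
A single miR-27a match was found in ABCC4, a single miR-29a match in ABCC1, and a single miR-125b match in each of ABCC1 and ABCC5. ABCC3, ABCB1 and ABCG2 held no match to any of the 5 seeds searched. Further miRNAs that the study ranked by eCLIP reads were not searched. A match is a description of letters, and whether AGO2 occupies it was not analysed here.

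Levels below are normalized counts, meaning estimated counts scaled by the trimmed mean of M-values to a common library size of 33193397, and each is listed for replicates 1, 2 and 3. Among the 4 knockout lines set against WT, ABCC2 RNA passed the test in the triple knockout alone, where it was lower. In WT cells its normalized counts were 5808.9, 3143.3 and 3845.9. In AGO1/2/3 knockout cells they were 1448.4, 1011.7 and 1217.2. All 3 of these libraries lie below every library of every other line, and the mean fell from 4266 ± 1382 to 1226 ± 219 (SD, n = 3 each). The log2 fold change was -1.80 ± 0.28 (SE), a 3.48-fold lower level (edgeR adjusted p = 0.000114). From bulk RNA, fewer cells that express the gene and less RNA per cell cannot be told apart.

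In the other knockout lines ABCC2 stayed within the range of WT or close to it. AGO1 knockout cells had 3381.0, 3046.7 and 4363.5, AGO2 knockout cells 5514.9, 3240.8 and 4324.4, and AGO1/2 knockout cells 2443.9, 4953.0 and 4648.0. Each of these groups overlaps WT, and the log2 fold changes were -0.25 ± 0.27, 0.03 ± 0.27 and -0.09 ± 0.27, none past the test (edgeR adjusted p = 0.651, 0.948 and 0.874). The difference between the triple and the double knockout was tested directly and gave a log2 fold change of -1.71 ± 0.28 (edgeR adjusted p = 0.000457). Replicates of ABCC2 were widely spread, with a coefficient of variation of 32.4% in WT and 34.1% in AGO1/2 knockout cells. With a standard error of 0.27, changes in the single or double knockouts, even some larger than that spread, could go uncalled. In none of the 22 alternative settings did ABCC2 lose its call in AGO1/2/3 knockout cells against WT, where its log2 fold change ranged from -2.00 to -1.53.

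**Figure D1:**
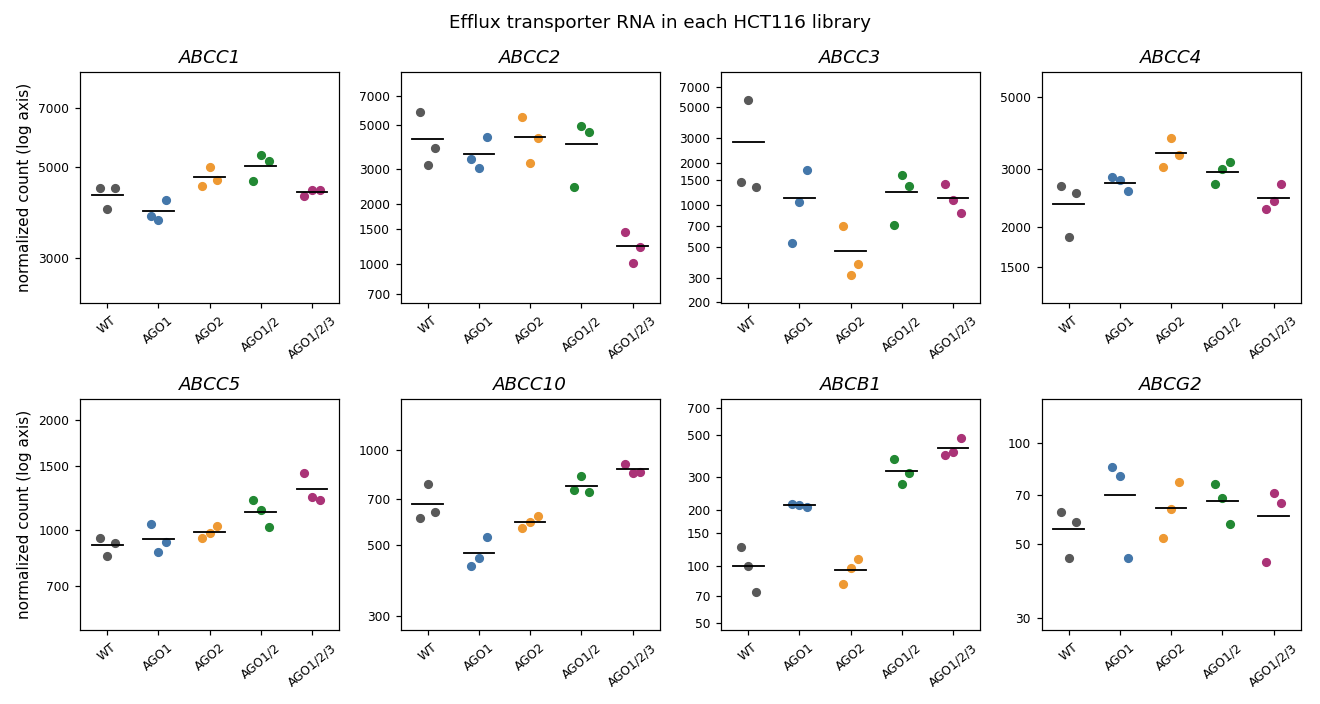
Normalized count (log axis) of each transporter in each library, by line; points are the 3 replicates and bars are the line means. ABCC2 is low in the 3 AGO1/2/3 knockout libraries, at 1011.7 to 1448.4, ABCB1 is high in the 3 lines labelled as lacking AGO1, and 1 WT library of ABCC3 stands at 5588.3.

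ABCC1, the broad exporter of glutathione conjugates, did not pass the test against WT in any knockout line. Its levels were 4446.6, 3947.4 and 4442.4 in WT and 4259.6, 4409.7 and 4409.9 in AGO1/2/3 knockout cells, which overlap. The log2 fold changes against WT ran from -0.13 in AGO1 to 0.24 in AGO1/2 knockout cells, and the value of 0.03 in the triple knockout became -0.11 when libraries were scaled by total counts. Every library of the AGO2 and AGO1/2 knockout lines lay above every WT library, by less than the test required. Its lowest mean was in AGO1 knockout cells, at 3903 ± 235, and its highest in AGO1/2 knockout cells, at 5051 ± 381, and these lines differed by 0.37 ± 0.09 on the log2 scale (edgeR adjusted p = 0.00799). That call was lost in 3 of 22 alternatives, without AGO1 knockout replicate 2 or AGO1/2 knockout replicate 2 or with no filter.

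ABCC3, which exports bile acids and glucuronides across the basolateral membrane, was the least steady member. WT levels were 1462.1, 5588.3 and 1334.0, so that replicate 2 alone was far above the others. AGO2 knockout cells had 708.2, 314.2 and 375.0, and every one of these libraries was below every WT library. The log2 fold change in AGO2 knockout cells was -2.58 ± 0.55 (edgeR adjusted p = 0.00746), and without WT replicate 2 it was -1.60 (edgeR adjusted p = 0.0324). Levels in AGO1/2/3 knockout cells were 1404.3, 1083.8 and 873.0, which reach into the WT range. Their log2 fold change, -1.32 ± 0.53, was not called (edgeR adjusted p = 0.0601) but was in 8 of 22 alternatives, and it became -0.35 without WT replicate 2 (edgeR adjusted p = 0.564) and -1.65 without WT replicate 1 (edgeR adjusted p = 0.0294) and -1.68 without WT replicate 3 (edgeR adjusted p = 0.0212). In AGO1 and AGO1/2 knockout cells the log2 fold changes were -1.33 and -1.19, and neither passed the test. Without WT replicate 2 they were -0.33 and -0.21.

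ABCC4, an exporter of cyclic nucleotides and prostaglandins, was highest in AGO2 knockout cells. Its levels there were 3052.8, 3739.5 and 3319.6, against 2664.2, 1863.1 and 2538.9 in WT. The groups do not overlap, and the log2 fold change was 0.52 ± 0.13 (edgeR adjusted p = 0.0149). The call was lost without WT replicate 2, the low one, without AGO2 knockout replicate 2 or 3, and with only the 6 samples of both lines in the fit. In AGO1/2/3 knockout cells, ABCC4 was 2268.3, 2406.0 and 2702.2, with a log2 fold change against WT of 0.06 ± 0.13 that became -0.08 when libraries were scaled by total counts. The AGO2 knockout libraries were processed under a different file label from the rest and included the deepest. The part of that in the ABCC3 and ABCC4 values, or in any other comparison with that line, was not tested.

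ABCC5 and ABCC10 hold a let-7 match as ABCC2 does, and both rose in AGO1/2/3 knockout cells. ABCC5 exports cyclic nucleotides and nucleotide analogs, and its levels were 948.4, 844.3 and 920.7 in WT and 1428.1, 1230.4 and 1208.2 in AGO1/2/3 knockout cells. The groups do not overlap, and the log2 fold change was 0.51 ± 0.10 (edgeR adjusted p = 0.000927). AGO1 and AGO2 knockout cells overlapped WT for ABCC5, with log2 fold changes of 0.06, which became -0.03 when libraries were scaled by total counts, and 0.12. AGO1/2 knockout cells, at 1204.4, 1132.1 and 1014.9, did not overlap WT, but their log2 fold change of 0.30 ± 0.10 was not called (edgeR adjusted p = 0.0545).

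ABCC10, or MRP7, a pump for taxanes and vinca alkaloids, fell in AGO1 knockout cells and rose in AGO1/2/3 knockout cells. WT levels were 610.4, 779.7 and 636.5. AGO1 knockout levels were 430.8, 454.8 and 531.3, all below WT, for a log2 fold change of -0.52 ± 0.11 (edgeR adjusted p = 0.00953). AGO1/2/3 knockout levels were 905.4, 848.9 and 855.0, all above WT, for a log2 fold change of 0.37 ± 0.11 (edgeR adjusted p = 0.0149). The first call was lost in 3 of 22 alternatives and the second in 7, among them scaling by total counts, without either of AGO1/2/3 knockout replicates 1 and 3 and without either of WT replicates 1 and 3. ABCC10 in AGO1/2 knockout cells was 750.5, 827.6 and 739.8, which overlaps WT, and it differed from AGO1 knockout cells by 0.71 ± 0.11 on the log2 scale (edgeR adjusted p = 0.000308).

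The 3 members with a let-7 match therefore went in both directions in AGO1/2/3 knockout cells, ABCC2 down and ABCC5 and ABCC10 up. Among all tested genes with a reference 3′-UTR that holds CTACCTC, 574 of 1622 were called higher and 281 lower in that comparison, 35.4% and 17.3%, with a median log2 fold change of 0.14. Over the 14434 tested genes with any reference 3′-UTR the shares were 27.1% higher and 21.5% lower, with a median of 0.05. For the miR-21 match, which ABCC2 also holds, 517 of 1412 genes were higher and 199 lower. ABCC2 was thus in the less common direction for both seeds, and no test of these lists was made.

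ABCB1, the classical multidrug resistance pump, was higher in the 3 lines labelled as lacking AGO1. Its levels were low in WT, at 126.9, 100.5 and 73.1, and in AGO2 knockout cells, at 80.3, 98.3 and 109.3. AGO1 knockout cells had 214.9, 211.0 and 208.1, AGO1/2 knockout cells 374.2, 275.9 and 314.3, and AGO1/2/3 knockout cells 393.0, 405.9 and 484.9. Every library of the 3 lines labelled as lacking AGO1 was above every library of the 2 lines that keep it, and those 3 lines do not overlap each other. Against WT the log2 fold changes were 1.08 ± 0.19 in AGO1 (edgeR adjusted p = 0.00208), 1.68 ± 0.18 in AGO1/2 (edgeR adjusted p = 1.77e-05) and 2.09 ± 0.18 in AGO1/2/3 knockout cells (edgeR adjusted p = 4.02e-07), the last a 4.27-fold rise. In AGO2 knockout cells it was -0.06 ± 0.19. All 3 calls held in each of the 22 alternatives run. ABCB1 held no match to the seeds searched.

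ABCB1 was higher in AGO1/2 than in AGO1 knockout cells by 0.61 ± 0.18 on the log2 scale (edgeR adjusted p = 0.0231), a call lost in 5 fits that left out 1 library: any of the AGO1 knockout replicates, or AGO1/2 knockout replicate 1 or 3. The AGO1/2/3 and AGO1/2 knockout lines did not overlap, but their difference of 0.41 ± 0.17 was not called (edgeR adjusted p = 0.102). ABCB1 lies on the minus strand of chromosome 7 and overlaps RUNDC3B, on the plus strand. RUNDC3B had a log2 fold change of -1.57 ± 0.29 in AGO1/2/3 knockout cells (edgeR adjusted p = 0.000414), the opposite sign to ABCB1. Libraries were prepared with a stranded kit, but the strand setting of the counting is not given in the sources used here. Of 12 annotated genes that overlap a member, the only other one above 0.5 CPM was DLK2, opposite ABCC10, at 0.883 CPM.

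ABCG2 was the least abundant member and did not pass the test in any of the 10 comparisons between lines. Its levels were 62.4, 45.5 and 58.0 in WT and 44.04, 70.94 and 66.37 in AGO1/2/3 knockout cells, which overlap. The log2 fold changes against WT were 0.34 ± 0.25, 0.21 ± 0.25, 0.28 ± 0.25 and 0.11 ± 0.25 in the AGO1, AGO2, AGO1/2 and triple knockouts, and the last became -0.03 when libraries were scaled by total counts. Beside standard errors of 0.25, differences of that size could not be called, and the part of its low counts in this was not tested.

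**Figure D2:**
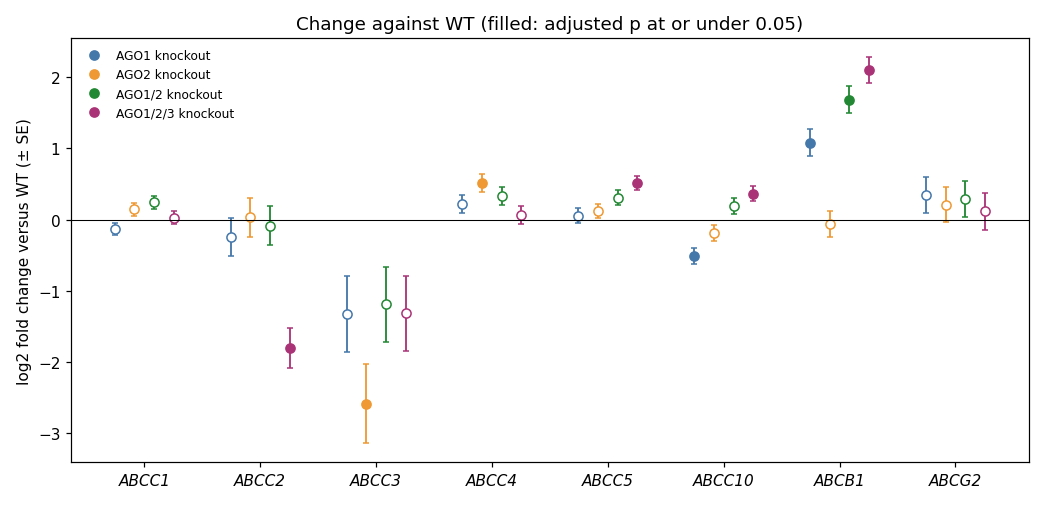
Log2 fold change against WT of each transporter (vertical axis) in the 4 knockout lines, with standard errors; filled points passed the edgeR test at an adjusted p of 0.05. The lowest filled points are ABCC3 in AGO2 knockout cells (-2.58) and ABCC2 in AGO1/2/3 knockout cells (-1.80), and the highest is ABCB1 in AGO1/2/3 knockout cells (2.09).

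Counts of members called are set beside the share of all 22842 tested genes called by the same rule. In AGO1 knockout cells 2 of 8 members were called against WT, 1 higher and 1 lower, where 8.68% of all genes were called, 3.17% higher and 5.50% lower. In AGO2 knockout cells 2 of 8 were called, 1 each way, with a background of 19.3%, made up of 8.55% higher and 10.8% lower. In AGO1/2 knockout cells 1 of 8 was called, with a background of 16.7%, made up of 8.37% higher and 8.35% lower. In AGO1/2/3 knockout cells 4 of 8 were called, with a background of 40.1%. A single gene is 12.5% of the members, so the counts in AGO2, AGO1/2 and triple knockout cells lay within 1 gene of the background and that in AGO1 knockout cells within 2 genes. The AGO1/2/3 calls were 3 higher and 1 lower, against backgrounds of 20.3% higher and 19.8% lower, and the members' median log2 fold change of 0.09 lay beside -0.01 for all genes. Members whose 3 libraries lay wholly above or below WT numbered 2 in AGO1 knockout cells (23.1% of all tested genes), 3 in AGO2 knockout cells (37.1%), 4 in the double knockout (29.7%) and 4 in the triple knockout (50.0%). The 4 comparisons share the WT libraries, so their calls are given side by side.

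Comparisons between knockout lines gave 1 of 8 members called for AGO1/2/3 against AGO1/2 (ABCC2), with a background of 22.0%. For AGO1/2 against AGO1 knockout cells 3 of 8 were called, ABCC1, ABCC10 and ABCB1, all higher, with a background of 19.5%. For AGO1/2 against AGO2 knockout cells 2 of 8 were called, ABCC10 and ABCB1, both higher, with a background of 23.9%. ABCC10 there had a log2 fold change of 0.38 ± 0.11 (edgeR adjusted p = 0.0206), a call lost in 4 of 22 alternatives (with no filter and without AGO2 knockout replicate 1 or 2 or AGO1/2 knockout replicate 2), and ABCB1 had 1.75 ± 0.18 (edgeR adjusted p = 9.55e-06). For AGO2 against AGO1 knockout cells 2 of 8 were called, with a background of 18.4%. ABCC1 was higher there by 0.28 ± 0.09 (edgeR adjusted p = 0.0442, lost in 19 of 22 alternatives) and ABCB1 had a log2 fold change of -1.14 ± 0.18. For the triple knockout against AGO1 knockout cells 4 of 8 were called, with a background of 40.6%, ABCC2 lower and ABCC5, ABCC10 and ABCB1 higher. Against AGO2 knockout cells 5 of 8 were called, with a background of 40.3%, the same genes and ABCC4, whose log2 fold change was -0.46 ± 0.13 (edgeR adjusted p = 0.0101). The ABCC4 call there was lost without AGO2 knockout replicate 2 or AGO1/2/3 knockout replicate 1, and the ABCC5 call was lost with no filter.

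Lines were also ranked by mean level for each member, and each was tested against the next in rank. Of the 32 neighbouring pairs, 3 differed past the test. These were ABCC2 between AGO1 knockout cells, next to last, and AGO1/2/3 knockout cells, last (1.55 ± 0.28 on the log2 scale, edgeR adjusted p = 0.000367), and ABCB1 between AGO1/2 and AGO1 and between AGO1 and WT. For ABCC5 the order was AGO1/2/3, AGO1/2, AGO2, AGO1 and WT, and for ABCC10 it was AGO1/2/3, AGO1/2, WT, AGO2 and AGO1, with no neighbours past the test. For ABCC1, ABCC3, ABCC4 and ABCG2 no neighbours passed the test either. Where no neighbours passed the test, the rank of a line against the next could not be read beyond the spread. Lines further apart in rank could still differ, as for ABCC5 in AGO1/2/3 knockout cells against WT (0.51 ± 0.10, edgeR adjusted p = 0.000927).

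Whether loss of AGO1 acted alike with and without AGO2 was tested as an interaction. It was called for 2 of 8 members, with a background of 19.7%. The interaction uses the AGO2 knockout libraries, with their different file label and depth, and the part of that was not tested. ABCC10 changed by -0.52 with AGO1 loss in cells that keep AGO2 and by 0.38 in cells that lack it, a difference of 0.90 ± 0.16 (edgeR adjusted p = 0.0012), and the call held in the 21 alternatives run for it. ABCC3 changed by -1.33 and by 1.39, a difference of 2.72 ± 0.76 (edgeR adjusted p = 0.0205), which was 1.73 without WT replicate 2 (edgeR adjusted p = 0.0496). For ABCB1 the difference of 0.67 ± 0.26 was not called (edgeR adjusted p = 0.082).

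The balance among transporters was compared on a per-length scale, as normalized count per kb of exon. That length joins every annotated exon of a gene and is not the length of 1 transcript, so the order of members with close levels is uncertain. In WT cells the levels were 544 ± 176 for ABCC2, 490 ± 33 for ABCC1, 291 ± 252 for ABCC3 and 273 ± 50 for ABCC4. ABCC10 and ABCC5 followed at 83.5 ± 11.3 and 79.6 ± 4.7, and ABCB1 and ABCG2 were lowest at 15.6 ± 4.2 and 9.87 ± 1.58. ABCC2 and ABCC1 do not differ beyond their spread in WT. In AGO1/2/3 knockout cells ABCC1 stood at 499 ± 10 per kb and ABCC2 at 156 ± 28. The share of ABCC2 in the summed level of the 8 genes was 21.7% to 39.0% over WT libraries and 9.82% to 13.3% over AGO1/2/3 knockout libraries. ABCB1 made up 0.864% ± 0.168 of the sum in WT and 4.92% ± 0.57 in AGO1/2/3 knockout cells, and thus remained a minor part by RNA level.

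**Figure D3:**
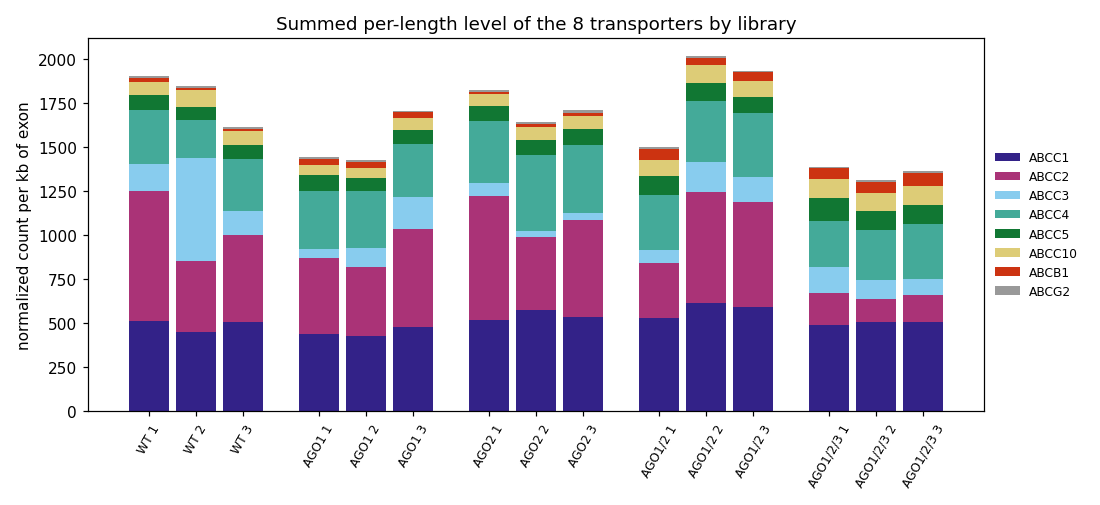
Stacked normalized count per kb of exon of the 8 transporters in each of the 15 libraries. The ABCC2 band is thin in the AGO1/2/3 knockout libraries (9.82% to 13.3% of the stack), the ABCC3 band is wide in WT replicate 2, and the ABCB1 band is widest in AGO1/2/3 knockout cells.

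Other subfamily C genes were mostly low. Of 6 listed, 4 were tested and 1 was called in the triple knockout, 25.0% beside the 40.1% of all tested genes. ABCC6, known from pseudoxanthoma elasticum, had 97.75, 104.7 and 96.07 in WT and 194.8, 179.1 and 169.9 in AGO1/2/3 knockout cells, a log2 fold change of 0.87 ± 0.16 (edgeR adjusted p = 0.000455). ABCC6 has near-identical pseudogene copies, and reads shared with them make its value uncertain.

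The remaining ABC genes moved both ways, and in the triple knockout 8 of 31 tested were called higher and 6 lower, 45.2% in all beside 40.1% of all tested genes. ABCA1, the cholesterol exporter that loads apolipoprotein A-I, had 175.7, 159.8 and 179.1 in WT and 1934, 1609 and 1618 in AGO1/2/3 knockout cells, a log2 fold change of 3.33 ± 0.27 (edgeR adjusted p = 1.96e-07). ABCG1, which passes cholesterol to high-density lipoprotein, rose by 1.56 ± 0.28 on the log2 scale. ABCA1 and ABCG1 were also higher in AGO1/2 knockout cells, by 2.38 and 1.53 on the log2 scale, whereas ABCA1 fell by 1.33 in AGO1 knockout cells (edgeR adjusted p = 0.0113) and was also called lower in AGO2 knockout cells. ABCA7, a lipid transporter, fell by 0.78 ± 0.13 on the log2 scale. ABCA12, the keratinocyte lipid transporter, was at 118.5, 161.9 and 53.0 in WT and at 2.54, 2.33 and 2.25 in AGO1/2/3 knockout cells, a level of a few reads at which no fold is given.

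**Figure D4:**
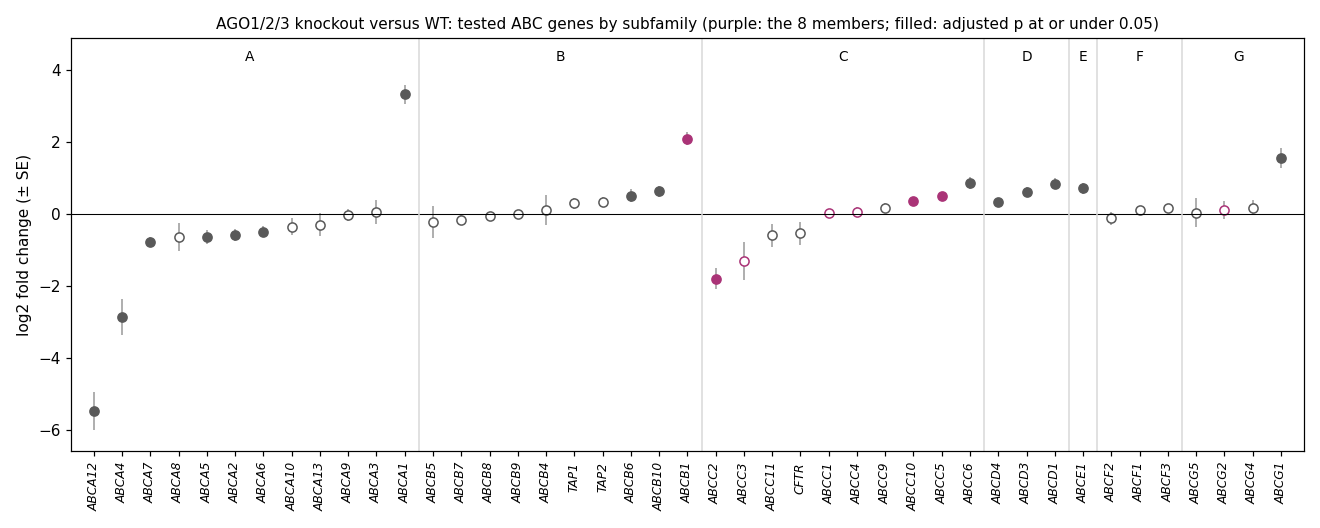
Log2 fold change in AGO1/2/3 knockout cells against WT (vertical axis, with standard errors) of each tested ABC gene, grouped by subfamily A to G and ranked within it; purple points are the 8 drug efflux members and filled points passed the edgeR test. ABCB1 is the highest of subfamily B at 2.09 and ABCC2 the lowest of subfamily C at -1.80, while ABCA1 (3.33) is above them and ABCA4 and ABCA12 are below.

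Genes that act together with the pumps were listed by role. Of 12 regulators of transporter genes, 8 were tested, and in the triple knockout 4 were called, all higher. That is 50.0% beside 40.1% of all tested genes called, within 1 gene of the background, and 20.3% of all tested genes were called higher. The median log2 fold change over the 8 was 0.15. The nuclear receptors NR1I2 (PXR), NR1I3 (CAR) and NR1H4 (FXR), which regulate transporter genes in liver and gut, averaged 0.103 CPM or less and were not tested. PPARA, the fatty acid receptor, rose by 0.90 ± 0.20 on the log2 scale, ARNT, the partner of the aryl hydrocarbon receptor, by 0.58 ± 0.10, KEAP1, which restrains NRF2, by 0.44 ± 0.15, and RXRA, the common partner of nuclear receptors, by 0.24 ± 0.09. The RXRA call was lost in 20 of 22 alternatives and the KEAP1 call in 7. NFE2L2 (NRF2) itself had a log2 fold change of -0.14 and was not called (edgeR adjusted p = 0.493).

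RNA for proteins that tether apical pumps to the actin cytoskeleton was mostly higher in the triple knockout. Of 6 listed and tested, 5 were called in the triple knockout and 3 in AGO1/2 knockout cells, all higher. The shares were 83.3% and 50.0%, beside 40.1% and 16.7% of all tested genes called. Of all tested genes, 20.3% and 8.37% were called higher. The median log2 fold change over the 6 was 0.61 in the triple knockout. In AGO1 knockout cells 0 were called higher and 1 lower, with a median of -0.17, and in AGO2 knockout cells 1 was called higher. There 8.68% and 19.3% of all tested genes were called. Moesin, MSN, had 5567, 5608 and 6466 in WT and 13168, 14048 and 15427 in triple knockout cells, and rose by 1.27 ± 0.10 on the log2 scale (edgeR adjusted p = 1.38e-07). Radixin, RDX, which holds ABCC2 at the bile canaliculus, rose by 0.74 ± 0.12. Ezrin, EZR, rose by 0.46 ± 0.14 and the scaffold NHERF1 by 0.49 ± 0.18, calls lost in 5 and 16 of 22 alternatives. The direction of RDX was opposite to that of ABCC2.

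Enzymes that make the conjugates exported by subfamily C moved both ways. Of 29 listed, 20 were tested, and in the triple knockout 2 were called higher and 5 lower, 35.0% in all beside the background of 40.1%, with a median log2 fold change of -0.18. GCLC, the catalytic subunit of the enzyme that begins glutathione synthesis, fell by 1.06 ± 0.15 on the log2 scale (edgeR adjusted p = 3.21e-05), and the sulfotransferase SULT2B1 fell by 0.91 ± 0.22. The glutathione transferase GSTM4 rose by 0.75 ± 0.14 and MGST3 by 0.44 ± 0.13. GSTM4 has close paralogs, and its value is uncertain where reads are shared.

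Uptake carriers, which admit drugs that the pumps remove, were called higher in 4 and lower in 2 of 16 tested genes of 18 listed in the triple knockout, 37.5% in all beside the background of 40.1%, with a median log2 fold change of 0.03. SLCO1B1 and SLCO1B3, organic anion carriers best known from hepatocytes, rose by 3.20 ± 0.18 and 2.38 ± 0.24 on the log2 scale. They are neighbouring genes with much shared sequence, so the split of reads between them is uncertain, but SLCO1B3 was the more abundant, at 27.3 against 1.79 CPM. SLC22A18 fell by 0.68 ± 0.23 and the nucleoside carrier SLC29A2 by 0.37 ± 0.13.

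Epithelial markers moved in the same cells. Of 6 listed, 5 were tested, and VIL1 was too low to test. In the triple knockout EPCAM and CDH1 had log2 fold changes of -1.74 and -3.51, KRT8 rose by 0.41, and KRT18 and KRT19 were not called. In AGO1/2 knockout cells 2 were called lower and 2 higher, with log2 fold changes of -0.92 for EPCAM, -1.66 for CDH1, 0.76 for KRT8 and 0.64 for KRT19. Single knockouts also had calls among the 5, with 2 lower in AGO1 knockout cells and 1 higher and 1 lower in AGO2 knockout cells. There 8.68% and 19.3% of all tested genes were called. The part of epithelial state in the ABCC2 and ABCB1 values was not tested.

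Genes next to ABCC2 moved in both directions in triple knockout cells. ABCC2 (ENSG00000023839) is on the plus strand at chr10:99782640-99852594. On its left the nearest tested genes are CUTC, COX15 and ENTPD7, and on its right DNMBP, DNMBP-AS1 and TPM4P1. CUTC, a copper-handling protein, fell by 0.62 ± 0.14 on the log2 scale and COX15, needed for heme A synthesis, fell by 0.42 ± 0.11. In contrast ENTPD7, a nucleotide hydrolase, rose by 1.02 ± 0.19 and DNMBP, a scaffold of dynamin, by 0.66 ± 0.14, and DNMBP-AS1 and TPM4P1 did not pass the test. ENTPD7, like ABCC2, is among the genes that the study selected for an AGO2 binding cluster in the 3′-UTR. The annotated spans of ENTPD7, CUTC and COX15 overlap, and the part of shared reads in their values was not tested. Of 29 tested genes within 1 Mb on either side, 7 were called higher and 4 lower, where 20.3% and 19.8% of all tested genes were, and the lowest log2 fold change among them was -1.45, above that of ABCC2.

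**Figure D5:**
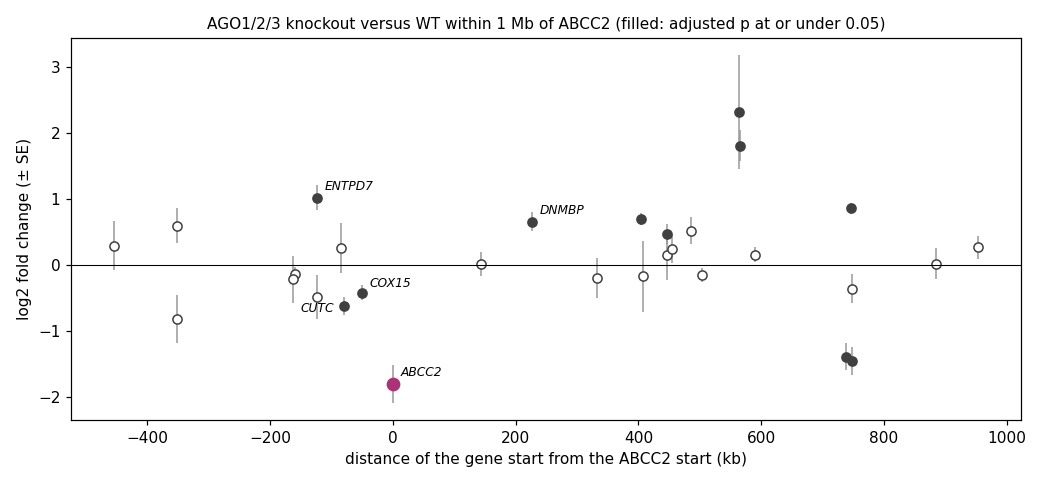
Log2 fold change in AGO1/2/3 knockout cells against WT (with standard errors) of tested genes within 1 Mb of ABCC2, by distance of the gene start from the ABCC2 start in kb; filled points passed the edgeR test. ABCC2, at -1.80, is the lowest point, while ENTPD7 (1.02) on the left and DNMBP (0.66) on the right are above 0.

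Likeness of pattern was measured as Pearson's r of log2 CPM over the 15 libraries against 16083 tested genes of at least 1 CPM, as a description. The genes most like ABCC2 were CD164L2 (r = 0.957), TMCO6 (r = 0.945) and EPHX2 (r = 0.943), the last a soluble epoxide hydrolase, and with line means removed r was still 0.806, 0.764 and 0.858. For ABCB1 they were SLC6A17 (r = 0.950), VCAN (r = 0.948) and RBPMS (r = 0.946), of which VCAN encodes the matrix proteoglycan versican. With line means removed those 3 values were 0.06, -0.18 and -0.47, so that likeness to ABCB1 lay between lines and not among replicates. For ABCC3 they were PLEKHG1, CELSR1P1 and EXD3 (r = 0.971, 0.966 and 0.963), and without WT replicate 2 the values were 0.949, 0.945 and 0.942. Those 3 genes were picked by r over all 15 libraries, so their high values are no separate evidence of a shared pattern.

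For ABCC10 the most alike were CCDC9B, CUEDC1 and MIDN (r = 0.971, 0.969 and 0.965), and for ABCC5 they were WASHC2A, LZTS1 and TRIP10 (r = 0.955, 0.941 and 0.935). For ABCC1 they were CD9, METTL7B and VSNL1 (r = 0.897, 0.891 and 0.890), and for ABCC4 they were PTER, SOD1 and SFR1 (r = 0.917, 0.899 and 0.888). ABCG2 had the weakest, with PIR, M1AP and DCPS (r = 0.863, 0.828 and 0.801). Among the members themselves, the most opposed pair was ABCC3 and ABCC4 (r = -0.81, and -0.69 with line means removed), and ABCC2 against ABCB1 gave r = -0.65, which became -0.15 with line means removed.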

How the data were processed

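RNAseq of 15 libraries (5 lines of HCT116 cells, 3 replicates each) was analysed, and eCLIP samples of the series were not used here. The authors deposited estimated counts per gene for each library, made with Salmon 0.11.0 after STAR 2.5.3a on hg38 by the submitters' processing notes, whereas the methods name other releases of both tools. Between 30.8% and 33.8% of the deposited values in a library were not whole, and they were rounded. The file headers of the AGO2 knockout libraries alone carry a further word for the mapping mode. Symbols and positions came from GENCODE v44 for 57167 of 57875 genes.

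Counts were tested with edgeR 4.0.16 (filterByExpr, trimmed mean of M-values, quasi-likelihood F test over all 15 libraries, Benjamini-Hochberg over 22842 genes), with a gene called at an adjusted p of at most 0.05. The study used DESeq2, which served here (version 1.42.0) as an alternative. Alternatives covered scaling, filters, samples fitted, a replicate block and leaving out each library. The replicate numbers do not pair the samples. P-values measure the spread between replicates of 1 line per genotype. Depths were 27709971 to 45271146, and their part in the uncalled results of rare genes such as ABCG2 was not tested. Scripts were tested on simulated data.

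Members and lists were chosen with earlier results of these data known. Named genes are the 8 members, the AGO genes, up to 4 called genes of each other list with a mean of at least 1 CPM (those with the 2 largest and the 2 smallest log2 fold changes in AGO1/2/3 knockout cells), the 3 tested genes on each side of ABCC2 and the 3 genes most like each member. The miRNA seeds, the 1 Mb window and genes overlapping members were chosen after the values were seen, as were NFE2L2 and the unexpressed receptors.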

Additional observations from a re-analysis of the deposited data

Results flagged for a closer look

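For 2 members the change with AGO1 loss differed between cells that keep AGO2 and cells that lack it, by a test of the difference itself. That test includes the AGO2 knockout libraries, which carry a different file label, and the part of that was not tested. For ABCC10 the difference was 0.90 on the log2 scale, from a decrease with AGO1 loss in WT cells to an increase in AGO2 knockout cells. For ABCC3 the difference was 2.72 and moved with 1 WT library, which stood at 5588.3 normalized counts against 1462.1 and 1334.0 for the others, since without it the difference was 1.73. The ABCC3 call was lost without AGO1 knockout replicate 2, AGO2 knockout replicate 2 or 3, or AGO1/2 knockout replicate 2.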

How the results depend on the processing

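Of the calls against WT, those of ABCC2, ABCC5 and ABCB1 in the triple knockout and of ABCB1 in AGO1 and AGO1/2 knockout cells kept their direction and their side of the threshold in each of 22 alternatives. The ABCC3 call in AGO2 knockout cells did so too, at log2 fold changes of -3.05 to -1.60. The cause of the differences below was not tested, except that a threshold of 2-fold calls fewer genes by construction. ABCG2 was the least abundant member, at 44.04 to 84.71 normalized counts, and the part of depth in its uncalled differences was not tested.

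With only the 6 samples of the 2 lines compared, 1 member was called in AGO1 and 1 in AGO2 knockout cells, and 658, 1868 and 2116 of all genes were called in AGO1, AGO2 and AGO1/2 knockout cells, fewer than with all libraries. The same setting called more genes in other comparisons, such as 5992 against 5015 for the triple against the double knockout and 6090 against 5466 for AGO1/2 against AGO2 knockout cells. With a further threshold of 2-fold, members called against WT were 2 in the triple knockout and 1 in each single knockout, with 0 for AGO1/2 against AGO1 and 1 for AGO1/2 against AGO2 knockout cells. All genes called at 2-fold were 3640 in the triple knockout, 1320 in the double, and 776 and 1332 in the AGO1 and AGO2 knockouts, with 1505 for the triple against the double knockout, 1444 for AGO1/2 against AGO1 and 1615 for AGO1/2 against AGO2 knockout cells. Without a filter on low counts 2 members were called in AGO1/2 knockout cells and 5 neighbouring pairs differed in the order of lines. For the triple against the double knockout 2 members were called with total counts alone or with at least 10 counts in every sample.

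With the replicate number as a block 2 members were called in AGO1/2 knockout cells in place of 1. The numbers do not pair the samples, since deviations of same-numbered samples from their line means had a mean correlation of -0.007 over 30 pairs of samples (range -0.218 to 0.291), and all genes called with the block were 3599 in AGO1/2 and 8945 in triple knockout cells, against 3820 and 9166 without it.

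Scaling by total counts moved the median over all genes to a log2 fold change of -0.15 in triple knockout cells and -0.14 in AGO2 knockout cells, and calls higher and lower became 3459 and 5962 in the former, against 4644 and 4522, and 733 and 3593 in the latter, against 1952 and 2456. They became 511 and 1985 in AGO1 knockout cells, against 725 and 1257, and 1394 and 2597 in AGO1/2 knockout cells, against 1913 and 1907. Log2 fold changes that were not called reversed sign. In triple knockout cells ABCC1 was -0.11 with total counts, -0.039 with at least 10 counts and -0.027 with 6 samples, ABCC4 was -0.080 with total counts and -0.0034 with at least 10 counts, and ABCG2 was -0.027 with total counts. ABCC2 in AGO2 knockout cells was -0.090 with total counts and -0.0069 with at least 10 counts, and ABCC5 in AGO1 knockout cells was -0.032 with total counts.

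Leaving out each library in turn gave 1 to 2 members called in AGO1, AGO2 and AGO1/2 knockout cells each, 1 to 3 for AGO1/2 against either single knockout and for the interaction, and 2 to 5 neighbouring pairs of lines. All genes called ran from 964 to 1984 in AGO1 knockout cells, lowest without AGO1 knockout replicate 2, and from 1529 to 5190 in AGO2 knockout cells, lowest without AGO2 knockout replicate 2. In AGO2 knockout cells they were 3364, 1874 and 5022 without WT replicates 1, 2 and 3, against 4408 with all libraries. WT replicate 2, which every comparison against WT shares, thus weighed on more genes than the members. For AGO1/2 against AGO2 knockout cells they ran from 3244 to 6570. Uncalled log2 fold changes of ABCC2 against WT ran from -0.42 to 0.049 in AGO1 knockout cells, -0.20 to 0.30 in AGO2 knockout cells and -0.29 to 0.19 in the double knockout, from -0.040 to 0.40 for AGO1/2 against AGO1, -0.29 to 0.14 for AGO1/2 against AGO2 and -0.16 to 0.39 for the interaction. In the triple knockout ABCC1 ran from -0.055 to 0.035, ABCC4 from -0.11 to 0.14 and ABCG2 from -0.036 to 0.29, and against AGO1/2 knockout cells ABCC3 ran from -0.42 to 0.11 and ABCG2 from -0.30 to 0.020. For AGO1/2 against AGO1 knockout cells ABCC3 ran from -0.20 to 0.61 and ABCG2 from -0.31 to 0.11, and for AGO1/2 against AGO2 knockout cells ABCG2 ran from -0.039 to 0.23. ABCC5 in AGO1 knockout cells ran from -0.016 to 0.13 and ABCB1 in AGO2 knockout cells from -0.27 to 0.13.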
